A study of Mus musculus with 10 samples.

Results

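The matricellular proteins of cardiac fibrosis were followed through 10 genes, Fn1, Postn, Tnc, Sparc, Thbs1, Thbs2, Thbs4, Ccn2 (also named Ctgf), Cilp and Spp1. They were chosen by name for their place in the fibrotic heart, with earlier results of these data known. Each matched exactly 1 of the 24160 gene rows of the series through the RefSeq accessions of that row. Polyadenylated RNA came from the posterior wall of the left ventricle of mice 30 weeks old, in 6 MC4R-/- libraries and 4 WT libraries. MC4R-/- mice lack the melanocortin 4 receptor, which curbs appetite through neurons of the hypothalamus, and WT mice carry it. Both genotypes were C57BL6/J mice from crosses of heterozygous parents, and no drug or diet is named for either. The labels give neither the sex of the mice nor how the allele was made. Whether every library comes from its own animal is not spelled out, so the tests measure spread between samples that may be technical. The title of the series ties the knockout to dilated cardiomyopathy, and the comparison asks whether transcripts of the fibrotic matrix differ between the genotypes.

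Matricellular proteins are secreted into the extracellular matrix and act there on cell behaviour more than on mechanical strength. They bind integrins, syndecans, CD36, CD47 and growth factors, and several of them control how latent TGF-beta is activated or how collagen is assembled. In adult ventricle most are kept low and are made mainly by fibroblasts, and their induction after infarction or pressure overload accompanies the switch of fibroblasts to matrix production. Fibronectin is a structural glycoprotein that is usually counted with them because its splice forms behave in the same way in repair.

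Values are normalized counts, meaning reads of a gene scaled by the size factor of the library and not by gene length. The libraries held from 4145033 reads in WT replicate 3 to 6425785 reads in WT replicate 4. The receptor transcript Mc4r itself had 4 reads over the 6 MC4R-/- libraries and 2 reads over the 4 WT libraries, so it does not check the labels at this depth. Markers of heart muscle were high in both genotypes, with summed normalized counts of 451300 to 506000 in MC4R-/- and 474600 to 524000 in WT for 10 cardiomyocyte genes. A pair of libraries stood apart. Lymphocyte markers summed to 622.9 in WT replicate 2, against 13.9 to 45.2 in the other libraries, and atrial markers summed to 3418 in MC4R-/- replicate 5, against 515.4 to 1364 in the others. Leaving out WT replicate 2, or both together, moved the log2 fold changes of Postn, Sparc and Thbs4 by over 1.5 times, and those values are given with each gene.

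Most matricellular transcripts had higher means in MC4R-/- ventricle, by moderate amounts, and none passed the test across all genes. Of the 10 genes 8 had a higher mean log2 value in MC4R-/-, against 48.4% of the 14611 genes tested. Their median log2 fold change, MC4R-/- over WT, was 0.47, beside a median of -0.01 over all genes tested. Genotype was tested with limma on log2(normalized count + 1), a scale that understates the change of low genes, and with Benjamini-Hochberg adjustment over all genes. At an adjusted p of 0.05, 0 of the 10 genes were called by limma, 0 by edgeR and 1 by DESeq2, Thbs1. DESeq2 gave no adjusted p to Tnc and Spp1. Over all genes limma called 0.459%, edgeR 0.411% and DESeq2 1.18% of the 10337 genes to which it gave an adjusted p. At an unadjusted limma p below 0.05, 4 were higher (Fn1, Postn, Thbs1 and Cilp) and 1 was lower (Ccn2), against 5.19% of all genes higher and 4.41% lower. Together these are 5 of 10, against 9.60% of all genes in either direction. The 10 genes were chosen with earlier results of these data known, so these shares describe the set and cannot serve as an independent test. All 10 passed the filter on low values, a mean of at least 1 over the 10 libraries. The libraries of the genotypes overlapped in every one of the 10 genes, while they did not overlap in 2.28% of all genes tested, and in 1.34% with MC4R-/- higher. In bulk tissue a change in the number of cells that make a transcript and a change in transcript per cell cannot be told apart.

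**Figure D1:**
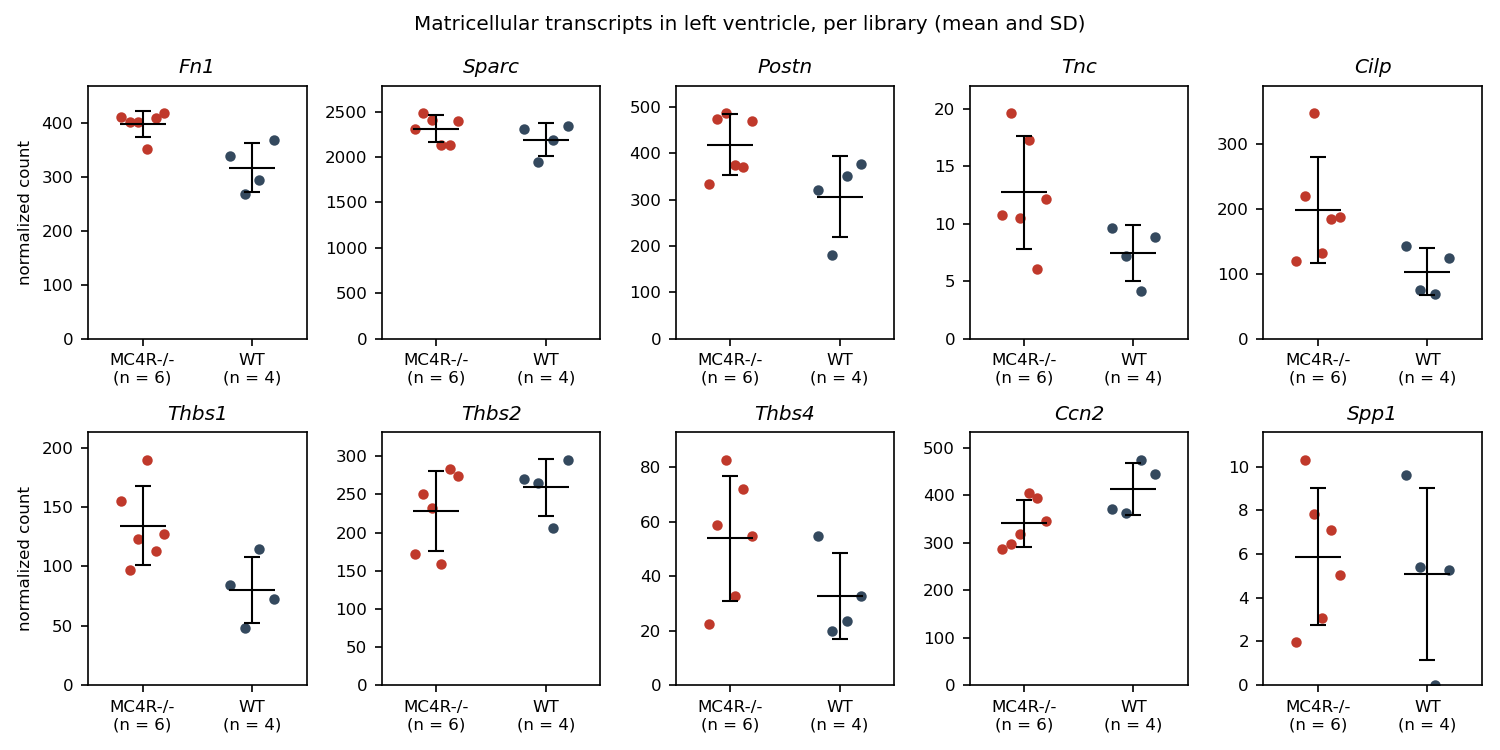
Normalized counts of the 10 matricellular genes per library, MC4R-/- (6 libraries) left of WT (4 libraries) in each panel, with the mean and SD as bars and every axis starting at 0. Fn1, Cilp and Thbs1 have all 6 MC4R-/- libraries above the WT median, and Ccn2 has all 6 below it.

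Fibronectin (Fn1) came closest to the threshold in the limma test. Its gene lies on chromosome 1 from 71585473 to 71653280 (GRCm38.p6). It had 350.9 to 418.2 normalized counts in the MC4R-/- libraries, with a median of 405.5, against 338.6, 267.2, 294.9 and 368 in WT replicates 1 to 4. The MC4R-/- libraries were the higher ones in 5 of 6 cases, and only MC4R-/- replicate 4 lay inside the WT range. Means were 398.6 ± 24.2 in MC4R-/- (SD, n = 6) and 317.2 ± 44.9 in WT (SD, n = 4). The log2 fold change was 0.34 ± 0.09 (SE; limma, unadjusted p = 0.0007, adjusted p = 0.0951). Permuting the genotypes of the same log2 values gave an exact two-sided p of 0.00952, where the smallest p that 210 arrangements allow is 0.00476. Without any 1 library its log2 fold change stayed between 0.26 and 0.41, with adjusted p from 0.061 to 0.22 (limma). Over all the alternatives run the adjusted p of Fn1 lay between 0.0571 (DESeq2) and 0.427 (limma with the replicate number as a block).

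Sparc (osteonectin), a collagen-binding protein needed for the processing of procollagen and present in healthy heart as well, hardly differed. It lies on chromosome 11 from 55394159 to 55420080. Its normalized counts were 2135 to 2486 in MC4R-/- with a median of 2358, against 2305, 1945, 2187 and 2339 in WT replicates 1 to 4. In MC4R-/- 3 libraries lay above every WT library, WT replicate 2 lay below every MC4R-/- library, and the others overlapped. The log2 fold change of Sparc was 0.08 ± 0.07 (SE; limma, adjusted p = 0.772), and its 95% interval ran from -0.06 to 0.22. Without WT replicate 2 the log2 fold change of Sparc was 0.02 (limma, adjusted p = 0.959).

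Periostin (Postn), the secreted protein most used to mark activated cardiac fibroblasts, was higher on average with overlapping groups. It lies on chromosome 3 from 54359267 to 54391041. Normalized counts ran from 334.6 to 487 in MC4R-/- with a median of 423, against 320.4, 179.6, 350.3 and 375.9 in WT replicates 1 to 4. In the MC4R-/- group 3 libraries were above every WT library, and the low value of WT replicate 2 lay far below the rest. Postn had a log2 fold change of 0.49 ± 0.21 (SE; limma, adjusted p = 0.512). Without WT replicate 2, the library with lymphocyte transcripts, it was 0.25 (limma, adjusted p = 0.408).

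Cilp, cartilage intermediate layer protein, a matrix protein made by cardiac fibroblasts and reported to bind TGF-beta, had the largest log2 fold change of the 10 genes. It lies on chromosome 9 from 65265180 to 65280614. Normalized counts were 120.3 to 348.5 in MC4R-/- with a median of 186.1, against 142.4, 74.9, 69.2 and 125 in WT replicates 1 to 4. In MC4R-/- 4 libraries exceeded all WT libraries, while replicates 1 and 4 lay among them, and MC4R-/- replicate 3 stood highest by a wide margin. Means were 199.1 ± 82.2 in MC4R-/- (SD, n = 6) and 102.9 ± 36.4 in WT (SD, n = 4), a log2 fold change of 0.92 ± 0.34 (SE; limma, adjusted p = 0.416). The permutation test gave p = 0.0333 (exact, two-sided). Without MC4R-/- replicate 3 the log2 fold change of Cilp was 0.74 (limma, adjusted p = 0.455), below the 0.80 of Thbs1. Without WT replicate 3 it was 0.76, below the 0.97 of Thbs1. The place of Cilp as the largest thus depended on single libraries.

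Tenascin C (Tnc), a large glycoprotein that is nearly silent in healthy adult ventricle and appears at sites of injury, was detected at the edge of depth. It lies on chromosome 4 from 63959785 to 64047015. Normalized counts were 6.08 to 19.6 in MC4R-/- with a median of 11.4, against 9.62, 7.22, 4.15 and 8.80 in WT replicates 1 to 4. These are 77 reads in all over the MC4R-/- libraries and 31 over the WT libraries. MC4R-/- replicate 5 was the only MC4R-/- library that did not exceed every WT library. Tnc had a log2 fold change of 0.67 ± 0.33 (SE; limma, adjusted p = 0.536), with a 95% interval from -0.01 to 1.35.

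An annotated start of each of Cilp, Postn and Tnc has the same feature, and the sequences are shown for it. That of Thbs4 is set beside them because its levels ran with those of Cilp, a relation that did not pass the adjustment. The sequences are those of RefSeq on GRCm38.p6, written 5′ to 3′ on the strand of the gene, and end at the base before the annotated start. Capitals mark TATATAA (the TATA box) and, in Thbs4, overlapping copies of CATTCC, the reverse complement of GGAATG, the core that TEAD factors bind.
Cilp chr9:65264930-65265179 (+): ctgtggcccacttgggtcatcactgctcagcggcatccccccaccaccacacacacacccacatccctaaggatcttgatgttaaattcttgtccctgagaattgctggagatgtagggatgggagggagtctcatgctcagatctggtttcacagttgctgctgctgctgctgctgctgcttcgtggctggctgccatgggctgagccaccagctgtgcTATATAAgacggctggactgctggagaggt
Postn chr3:54360857-54361106 (+): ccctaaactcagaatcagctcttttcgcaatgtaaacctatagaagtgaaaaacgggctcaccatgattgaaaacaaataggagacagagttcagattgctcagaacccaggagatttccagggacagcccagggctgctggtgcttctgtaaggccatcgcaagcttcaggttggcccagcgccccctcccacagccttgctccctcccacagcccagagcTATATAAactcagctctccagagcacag
Tnc chr4:64046937-64046966 (-): cTATATAAgcctgccaaagctggctgctcc
Thbs4 chr13:92794819-92795068 (-): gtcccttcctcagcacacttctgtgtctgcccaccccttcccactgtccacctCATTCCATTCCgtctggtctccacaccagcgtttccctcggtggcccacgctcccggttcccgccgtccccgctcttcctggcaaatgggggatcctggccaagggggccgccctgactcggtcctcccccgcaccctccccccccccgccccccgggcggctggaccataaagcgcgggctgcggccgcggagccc

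The motif TATATAA begins at position -30 in Cilp, -28 in Postn and -29 in Tnc, counted back from the start. Postn and Tnc have more than 1 annotated start. The motif stands before the start shown, and the window of the other start of each gene lacks it. The 250 bases shown for Postn and the 30 bases shown for Tnc lie within the annotated genes. The Tnc window holds 79 bases of exon, and the Postn window shown holds 0. The bases that follow the start shown were found in a GENCODE M21 transcript for Cilp, Tnc and Thbs4, and in none for Postn. The windows of Sparc, Thbs2, Thbs4 and Spp1 lack TATATAA. Searched on both strands, TATATAA lies in 3.04% of the 32851 windows of 250 bases before all annotated starts. GGAATG on either strand lies in 12.6% of them, and of the windows of these genes only that of Thbs4 holds it. The starts of Fn1, Thbs1 and Ccn2 were not analysed here. A match is a description of the letters and not of a factor at work there.

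None of the thrombospondins passed the limma test. Thbs1, a trimeric protein that activates latent TGF-beta and restrains new vessels, had a higher mean in MC4R-/-, and the closely related Thbs2 a lower one. Thbs1 lies on chromosome 2 from 118111876 to 118127133. Its normalized counts were 97.1 to 190.2 in MC4R-/- with a median of 125.1, against 84.7, 47.8, 114.9 and 72.2 in WT replicates 1 to 4. In MC4R-/- 4 libraries lay above all WT libraries, and WT replicate 3 alone reached into the MC4R-/- range. Means were 134.4 ± 33.4 in MC4R-/- (SD, n = 6) and 79.9 ± 27.9 in WT (SD, n = 4). The log2 fold change of Thbs1 was 0.78 ± 0.23 (SE; limma, adjusted p = 0.253), and it had adjusted p = 0.0261 by DESeq2 on the reads and 0.273 by edgeR. The permutation test gave p = 0.019 (exact, two-sided). Without WT replicate 2 the log2 fold change of Thbs1 was 0.56 (limma, adjusted p = 0.214). Over the alternatives run its adjusted p lay between 0.0261 and 0.421.

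Thbs2, on chromosome 17 from 14665500 to 14694262, is the other trimeric thrombospondin and is known for its role in matrix integrity of the failing heart. It had 158.7 to 283.6 normalized counts in MC4R-/- with a median of 241.4, against 270.3, 264.5, 206.3 and 295.8 in WT replicates 1 to 4. For Thbs2 the log2 fold change was -0.20 ± 0.17 (SE; limma, adjusted p = 0.77), with a 95% interval from -0.57 to 0.17. MC4R-/- replicates 1 and 4 were the lowest of all libraries in Thbs2 and the highest in Thbs1. The ratio of Thbs1 to Thbs2 normalized counts, a comparison chosen after the values were seen, had a median of 0.497 in MC4R-/- (0.387 to 1.20) and of 0.279 in WT (0.181 to 0.557). On the log2 scale it averaged -0.77 ± 0.67 in MC4R-/- (SD, n = 6) and -1.76 ± 0.69 in WT (SD, n = 4; exact two-sided permutation test, p = 0.0619), a difference that did not pass 0.05.

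Thbs4, on chromosome 13 from 92751586 to 92794818, is a pentameric thrombospondin that is induced in the overloaded heart and acts also inside the secretory pathway. Its normalized counts were 22.5 to 82.8 in MC4R-/- with a median of 56.7, against 54.8, 19.9, 23.5 and 32.6 in WT replicates 1 to 4. In MC4R-/- replicates 1 and 4 were low and replicates 3 and 5 high, and only WT replicate 2 lay below every MC4R-/- library. For Thbs4 the log2 fold change was 0.68 ± 0.39 (SE; limma, adjusted p = 0.648), and 0.38 without WT replicate 2 and MC4R-/- replicate 5 together (limma, adjusted p = 0.832).

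**Figure D2:**
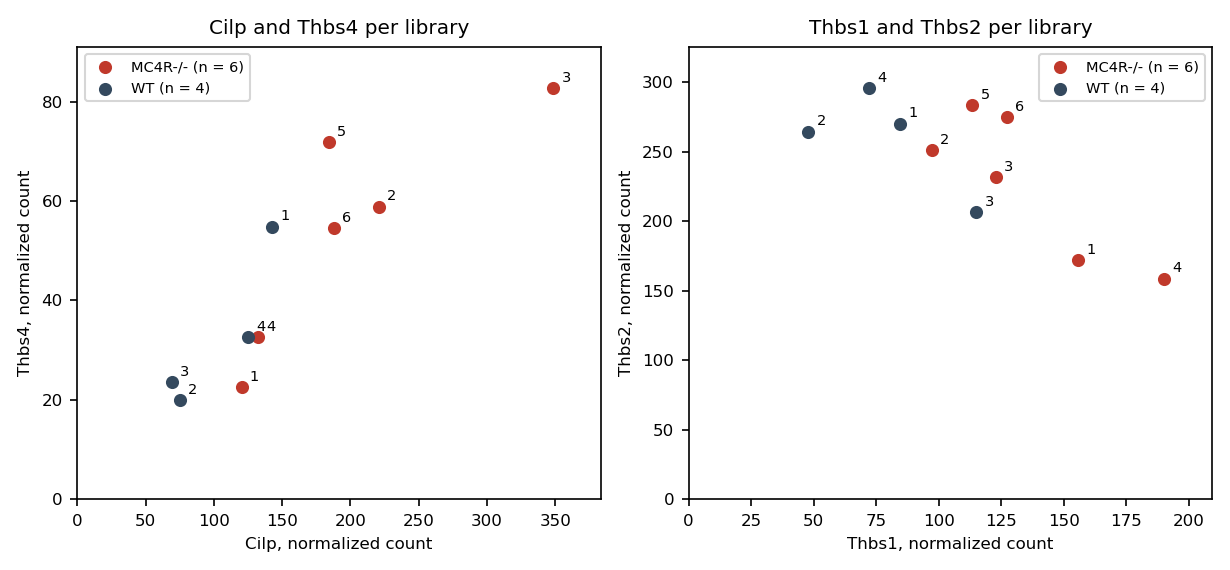
Normalized counts of Cilp against Thbs4 (left) and of Thbs1 against Thbs2 (right), 1 point per library with its replicate number, MC4R-/- in red (6 libraries) and WT in blue-grey (4 libraries), axes starting at 0. Cilp and Thbs4 run from low in both to high in both in MC4R-/- replicate 3, while MC4R-/- replicates 1 and 4 are high in Thbs1 and low in Thbs2.

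Ccn2, connective tissue growth factor, a target of TGF-beta and of the YAP and TEAD factors that drives matrix production, went the other way. It lies on chromosome 10 from 24595442 to 24598683. Normalized counts were 286.7 to 404.8 in MC4R-/- with a median of 331.7, against 371.4, 362.9, 474.9 and 443.7 in WT replicates 1 to 4. In MC4R-/- 4 libraries lay below all WT libraries, and replicates 4 and 5 lay inside the WT range. Means were 340.9 ± 49.7 in MC4R-/- (SD, n = 6) and 413.2 ± 54.8 in WT (SD, n = 4). For Ccn2 the log2 fold change was -0.28 ± 0.10 (SE; limma, unadjusted p = 0.0119, adjusted p = 0.32). The permutation test gave p = 0.0714 (exact, two-sided). Without WT replicate 2 and MC4R-/- replicate 5 together it was -0.38 (limma, adjusted p = 0.0727).

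Osteopontin (Spp1), an acidic secreted ligand of integrins and CD44 that macrophages and activated fibroblasts make after injury, was scarcely detected in either genotype. It lies on chromosome 5 from 104435111 to 104441053. It had 1.96 to 10.3 normalized counts in MC4R-/- with a median of 6.07, against 9.62, 5.42, 0 and 5.28 in WT replicates 1 to 4. These are 36 reads over the MC4R-/- libraries and 22 over the WT libraries. The 0 reads of WT replicate 3, the shallowest library, allow up to 4.15 normalized counts, counting error only. Spp1 had a log2 fold change of 0.45 ± 0.54 (SE; limma, adjusted p = 0.85), and it was -0.27 without WT replicate 3. No difference was detectable at this depth.

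**Figure D3:**
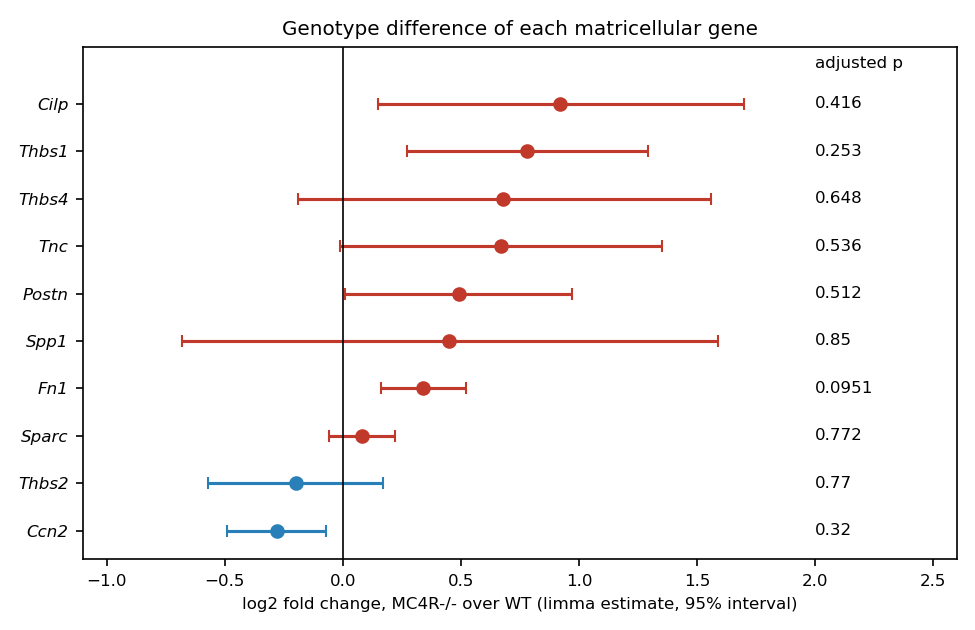
Log2 fold change of each gene, MC4R-/- over WT, as the limma estimate with its 95% interval (points and bars; red above 0, blue below) and the adjusted p at the right. Cilp is highest at 0.92 and Ccn2 lowest at -0.28, and no adjusted p is below 0.05.

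Per kilobase of the longest GENCODE M21 transcript that matches the RefSeq accessions of the row, Sparc was the most abundant in both genotypes, at 1010 ± 64.3 normalized counts per kilobase in MC4R-/- (SD, n = 6) and 954 ± 77.5 in WT (SD, n = 4). Ccn2 came next at 142 ± 20.7 in MC4R-/- and 172 ± 22.9 in WT, followed by Postn at 131 ± 20.6 in MC4R-/- and 95.6 ± 27.3 in WT. The ranges of Ccn2 and Postn overlapped in MC4R-/- and did not overlap in WT. Below them were Fn1 (47.9 in MC4R-/-, 38.1 in WT), Cilp (47.9 and 24.8) and Thbs2 (38.8 and 44.0), whose neighbours overlapped in both genotypes. Thbs1 had 23.0 in MC4R-/- and 13.7 in WT, and Thbs4 had 16.8 in MC4R-/- and 10.2 in WT. The range of Thbs1 overlapped that of Thbs2 in MC4R-/-, that of Cilp in WT and that of Thbs4 in both. Spp1 (3.91 in MC4R-/-, 3.37 in WT) and Tnc (1.79 and 1.05) were lowest, with overlapping ranges. In WT the range of Spp1 also overlapped that of Thbs4, and in MC4R-/- it did not.

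**Figure D4:**
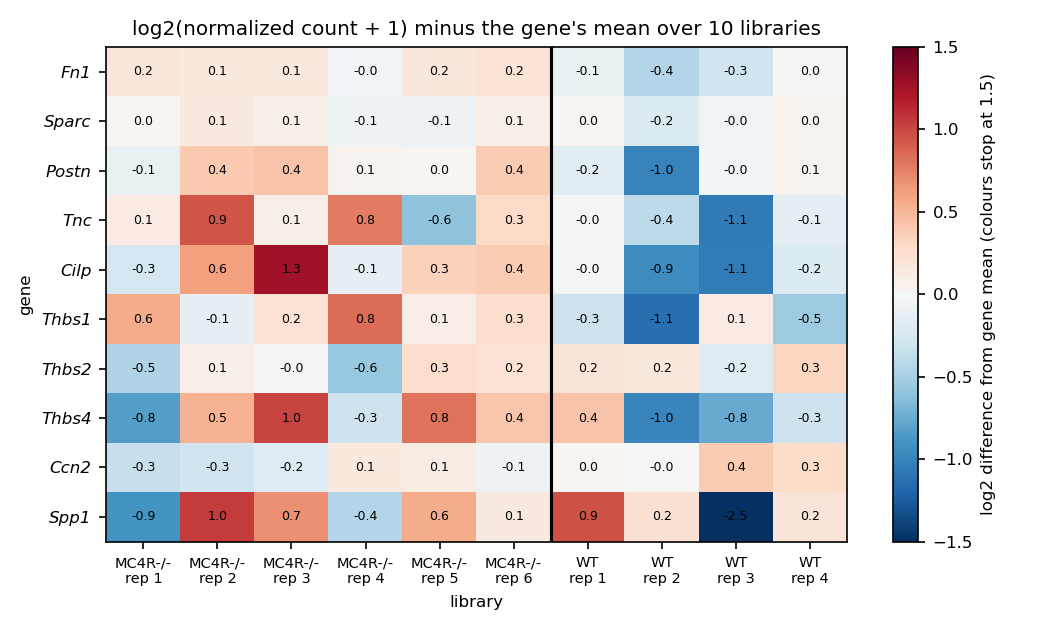
Log2(normalized count + 1) of each gene in each library minus the mean of that gene over the 10 libraries, with MC4R-/- libraries left of the line and WT libraries right of it. WT replicates 2 and 3 are below the gene mean in 8 of 10 genes each, and MC4R-/- replicates 2, 3 and 5 are above it in 8 of 10.

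Single libraries carried much of the spread. WT replicate 2 had the lowest value of all libraries in 5 of the 10 genes and WT replicate 3 in 3. MC4R-/- replicates 2 and 3 had the highest value in 3 genes each. The mean deviation from the gene mean over the 10 genes was 0.37 on the log2 scale in MC4R-/- replicate 3 and -0.20 in MC4R-/- replicate 1, against -0.54 in WT replicate 3 and 0.10 in WT replicate 1. MC4R-/- replicate 1 thus lay below the WT replicates 1 and 4 in this average.

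Among the 45 pairs of genes, correlated over the 10 libraries after taking out the genotype means, 32 had a positive Pearson's r. Permuting libraries within genotype (17280 arrangements, exact) gave an unadjusted p below 0.05 for 8 pairs and an adjusted p below 0.05 for 0. The closest pair was Cilp and Thbs4, with Pearson's r = 0.889 (exact permutation p = 0.00191, adjusted p = 0.0859) and Spearman's rho = 0.83 (exact permutation p = 0.00469, adjusted p = 0.117). It kept r = 0.857 without MC4R-/- replicate 1 and WT replicate 1, the libraries farthest from the median in Thbs4. Thbs1 and Thbs2 had r = -0.709 (exact permutation p = 0.0189, adjusted p = 0.164) and rho = -0.527 (exact permutation p = 0.119, adjusted p = 0.496), and r = -0.825 without WT replicates 2 and 3. Neither relation passed the adjustment.

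By likeness, measured as Pearson's r over the 10 libraries with the mean standardized profile of the 10 genes after taking out the genotype means, the nearest other rows were the joined row of Scd2 and Mir5114 (0.96), Mindy1 (0.94), the collagen-binding integrin subunit Itga1 (0.94), Tnfsf9 (0.93) and the intermediate filament gene Vim of mesenchymal cells (0.93). They were picked as the highest among all genes tested, so these values describe a ranking only. Tnfsf9 averaged only 1.89 normalized counts over the 10 libraries, so its r rests on very few reads. The log2 fold changes of Itga1 (-0.00 ± 0.15) and Vim (0.04 ± 0.07; SE) were near 0.

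Relatives of the 10 genes mostly had higher means too, with no calls. Of 23 tested relatives (other CCN proteins, fibulins, SMOC proteins and the like), 19 had a higher mean log2 value, against 48.4% of all genes tested. Their median log2 fold change was 0.13. None of the relatives was called by limma (0, with 4 at an unadjusted p below 0.05), by edgeR (0) or by DESeq2 (0). Over all genes 9.60% had an unadjusted limma p below 0.05, and limma called 0.459%. Tgfbi, the periostin paralogue that TGF-beta induces, had 203.7 ± 21.1 normalized counts in MC4R-/- (SD, n = 6) and 158.6 ± 31.1 in WT (SD, n = 4; limma, adjusted p = 0.201). Fbln2, fibulin 2, had 746 ± 91.4 in MC4R-/- and 623.7 ± 50.4 in WT (limma, adjusted p = 0.255). Ccn1, the CCN family member that shares upstream factors with Ccn2, had 350 ± 63.5 in MC4R-/- and 315.7 ± 8.97 in WT (limma, adjusted p = 0.752). It was chosen after its values were seen.

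The collagens had higher means in 16 of 17 genes, against 48.4% of all genes tested, with a median log2 fold change of 0.19. Limma called 0 collagens (8 at an unadjusted p below 0.05, against 9.60% of all genes), as did edgeR (0) and DESeq2 (0). Col14a1, a collagen on the surface of fibrils, had 94.9 ± 13.8 normalized counts in MC4R-/- (SD, n = 6) and 69.5 ± 10.5 in WT (SD, n = 4; limma, adjusted p = 0.201). Col6a3, of the pericellular microfibrils, had 347.7 ± 47.7 in MC4R-/- and 275.9 ± 41.9 in WT (limma, adjusted p = 0.231).

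Of 25 factors known to act upstream of these genes, 19 had a higher mean, against 48.4% of all genes tested. Their median log2 fold change was 0.14. Limma called 0 of the upstream factors (6 at an unadjusted p below 0.05), edgeR 0 and DESeq2 1. The shares over all genes were 9.60% at an unadjusted limma p below 0.05 and 1.18% called by DESeq2. Smad3, a signal transducer of TGF-beta, had 155.1 ± 17.5 normalized counts in MC4R-/- (SD, n = 6) and 130 ± 6.89 in WT (SD, n = 4; limma, adjusted p = 0.432).

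The receptors that bind matricellular proteins showed no common direction. Of 24 tested, 12 had a higher mean, against 48.4% of all genes tested, and the median log2 fold change was -0.01. Limma called 0 receptors (3 at an unadjusted p below 0.05, against 9.60% of all genes), edgeR 0 and DESeq2 0. The integrin subunit Itgb6 had 122 ± 21.3 normalized counts in MC4R-/- (SD, n = 6) and 89.4 ± 26.8 in WT (SD, n = 4; limma, adjusted p = 0.343), and Itgb3 had 18.6 ± 5.53 in MC4R-/- and 31.8 ± 18.4 in WT (limma, adjusted p = 0.464).

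**Figure D5:**
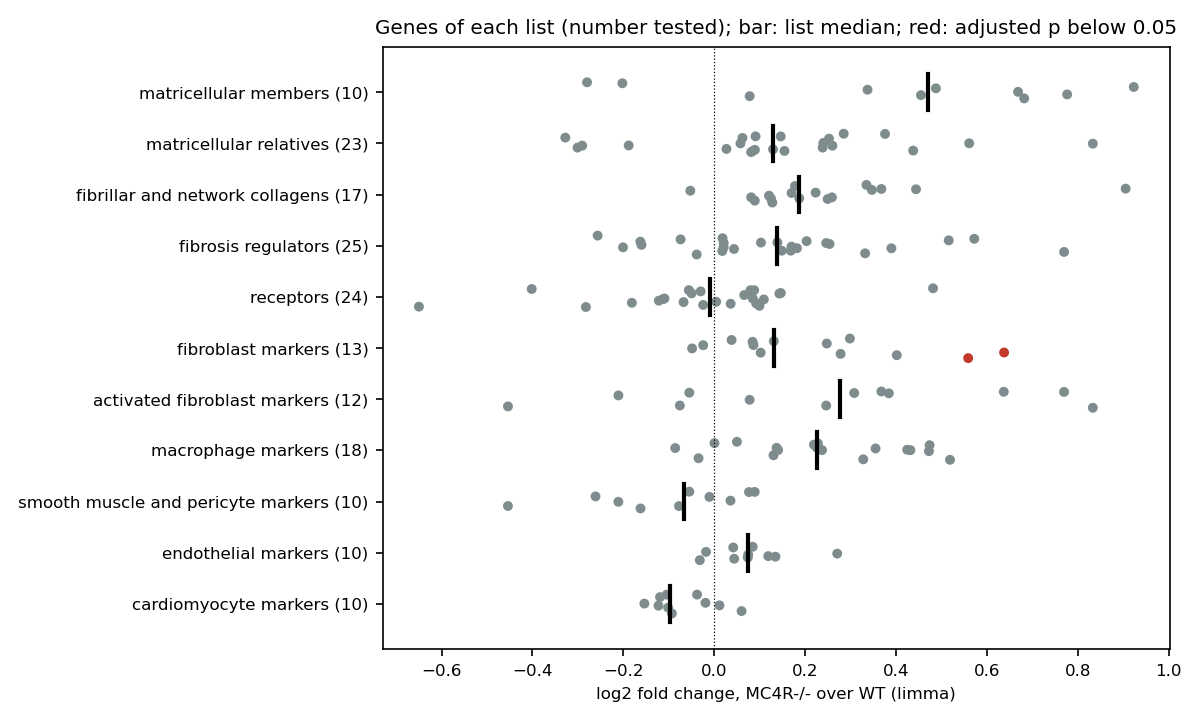
Log2 fold change, MC4R-/- over WT, of each tested gene in the matricellular set, the related lists and marker lists of cell types (points), with the median of each list as a bar and genes at an adjusted p below 0.05 in red. The median is 0.47 for the matricellular genes and -0.10 for cardiomyocyte markers, and the red points are Lum and Mfap5 among the fibroblast markers.

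Markers of fibroblasts, the main source of these proteins, were higher on average as well. Of 13 tested fibroblast markers 11 had a higher mean, against 48.4% of all genes tested. Fbln1 is also counted among the relatives, and Ddr2 among the receptors. Limma called 2 of the 13 markers higher, against 0.287% of all genes. These were Lum, a small proteoglycan (484.4 ± 38.3 normalized counts in MC4R-/-, 332.9 ± 67.4 in WT; SD, n = 6 and 4; limma, adjusted p = 0.0112), and Mfap5, a microfibril protein (160.7 ± 31.5 in MC4R-/-, 102.7 ± 21.3 in WT; limma, adjusted p = 0.0481). Over the 22 alternatives Lum lost its call in 2, limma with neither trend nor robust fitting (adjusted p = 0.273) and without WT replicate 4 (limma, adjusted p = 0.0625). Mfap5 lost its call in 14 of the 22, with adjusted p from 0.00594 to 0.33. The summed level of the fibroblast markers was 16280 to 19060 in MC4R-/-, against 15290 to 17490 in WT. Its largest parts were Gsn and Dcn, with means of 9035 and 3754 in MC4R-/-. The lineage factor Tcf21, chosen after its values were seen, had 38.0 ± 3.59 in MC4R-/- and 36.3 ± 8.28 in WT (SD, n = 6 and 4; limma, adjusted p = 0.923). The part of fibroblast content in the values above was not tested.

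Most markers of activated fibroblasts also had higher means. Of 12 tested 8 had a higher mean, against 48.4% of all genes tested, with a median log2 fold change of 0.28. The genes with lower means were Acta2, Tagln, Cnn1 and Lox. Col8a1, Ltbp2 and Comp, all with higher means, are also counted among the collagens, the upstream factors and the relatives. Comp is counted among the tendon markers too, so these lists are not separate evidence. None of the activated fibroblast markers was called by limma (0), edgeR (0) or DESeq2 (0). At an unadjusted limma p below 0.05, 4 were higher and 1, Acta2, was lower, against 5.19% of all genes higher and 4.41% lower. The summed level of the activated fibroblast markers was 1447 to 2085 in MC4R-/-, against 1506 to 1849 in WT, with Acta2 as its largest part. Smooth muscle actin Acta2, the classical myofibroblast marker that vessel walls also express, had 487.4 ± 113 normalized counts in MC4R-/- (SD, n = 6) and 658.1 ± 73.0 in WT (SD, n = 4; limma, adjusted p = 0.283). Smooth muscle and pericyte markers, Acta2 among them, had a higher mean in 3 of 10 genes, against 48.4% of all genes tested. Limma called 0 of them (2 at an unadjusted p below 0.05, against 9.60% of all genes), edgeR 0 and DESeq2 0. Col8a1 had 229.7 ± 33.0 in MC4R-/- and 179.7 ± 37.4 in WT (limma, adjusted p = 0.3). Cthrc1, a defining gene of matrix-producing fibroblasts after infarction, also chosen after its values were seen, averaged under 1 normalized count in both genotypes, 0.172 in MC4R-/- and 0.807 in WT.

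Macrophage markers, which bear on Spp1, had higher means in 16 of 18 genes, against 48.4% of all genes tested. Their summed level was 3232 to 3675 in MC4R-/- and 2664 to 3262 in WT. Limma called 0 macrophage markers (7 at an unadjusted p below 0.05), edgeR 0 and DESeq2 2, C1qa (adjusted p = 0.0454) and C1qb (adjusted p = 0.0452), against 9.60% of all genes at an unadjusted limma p below 0.05 and 1.18% called by DESeq2. The complement genes C1qa (337.9 ± 38.8 in MC4R-/-, 253.3 ± 44.0 in WT; limma, adjusted p = 0.0951) and C1qb (329 ± 40.2 in MC4R-/-, 239.8 ± 51.6 in WT; limma, adjusted p = 0.105) also had the smallest p by limma. Tendon, cartilage and valve markers, a tissue that also makes Cilp and Thbs4, had higher means in 7 of 8 tested genes, against 48.4% of all genes. Their median log2 fold change was 0.42. Their summed level ran from 241 to 602.7 in MC4R-/-, highest in replicate 5, and from 173.3 to 443.5 in WT, highest in replicate 1. Limma called 0 of these 8 tested markers (1 at an unadjusted p below 0.05, against 9.60% of all genes), edgeR 0 and DESeq2 0. Epicardial and mesothelial markers summed to 25.2 to 98.8 in MC4R-/- and 29.1 to 70.4 in WT. Limma called 0 of them (0 at an unadjusted p below 0.05, against 9.60% of all genes), edgeR 0 and DESeq2 0. Over all genes limma called 0.459%, edgeR 0.411% and DESeq2 1.18%. The part of tendon, cartilage, valve, epicardial or mesothelial tissue in the values of Cilp and Thbs4 was not tested. Endothelial markers had a higher mean in 8 of 10 genes and cardiomyocyte markers in 2 of 10, against 48.4% of all genes tested. At an unadjusted limma p below 0.05 there were 0 endothelial markers and 1 cardiomyocyte marker, against 9.60% of all genes. In both lists limma, edgeR and DESeq2 called 0.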

How the data were processed

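The series was processed by its submitters. TopHat2 2.1.0, Bowtie2, Cuffdiff 2.2.1.3, Cuffnorm 2.2.1.1, Cufflinks 2.2.1 and bcl2fastq are listed, per the submitters' processing notes, as is the build mm10. The role of each tool, the annotation and the strand setting are not given in the sources used here. Libraries were stranded and selected for poly(A), per the labels' protocols. The deposited signal is a count of reads scaled by the size factor of each library and not by gene length: 99.99 to 100% of the values above 0 were whole multiples of the value of 1 read, within 0.1. Dividing by that value gave the reads for edgeR 4.0.16 and DESeq2 1.42.0, run as alternatives.

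Rows were named through a RefSeq gene table of GRCm38.p6 (23984 of 24160 rows), whose coordinates are printed, 1-based. Genotype was tested with limma 3.58.1 in R 4.3.3 (lmFit and eBayes, trend and robust options on) applied to log2(normalized count + 1), for 14611 genes with a mean of at least 1, without covariates, two-sided, with Benjamini-Hochberg adjustment and a threshold of 0.05. The plan named edgeR for raw counts, and since the values are normalized limma remained the main test. The scripts were checked on simulated counts. Errors of levels are SDs, errors of fold changes are SEs.

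The members and lists were chosen with earlier results of these data known. Named genes are the 10 members, the called genes of each list or otherwise up to 2 with the smallest p, and the 5 rows most like the members. Ccn1, Tcf21 and Cthrc1 fall outside this rule. Overlapping genes and paralogs may share reads. A gene that this rule takes is not reported here.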

Additional observations from a re-analysis of the deposited data

Results flagged for a closer look

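In 42 groups of libraries examined (the 10 genes, the ratio of Thbs1 to Thbs2, and the summed marker lists, in each genotype), 6 held a library far from the others, where chance flags about 1 group in 20. Among the matricellular genes this was Fn1 in MC4R-/- replicate 4, at 350.9 normalized counts against 401.6 to 418.2 in the other MC4R-/- libraries. Without it the log2 fold change of Fn1 was 0.37 (limma, adjusted p = 0.061). Without WT replicate 2, the lowest library in Fn1, it was 0.26 (limma, adjusted p = 0.218). The summed activated fibroblast markers were 2085 in MC4R-/- replicate 3, against 1447 to 1602 in the other MC4R-/- libraries. The largest part of this sum is Acta2, which is also on the smooth muscle list. MC4R-/- replicate 3 was also highest in Cilp, Thbs4 and Postn. The summed atrial markers were 3418 in MC4R-/- replicate 5, against 588.9 to 1018. In WT replicate 4 the summed endothelial markers were 10900, against 10010 to 10120 in the other WT libraries, and the epicardial and mesothelial markers 70.43, against 29.07 to 31.75. The summed lymphocyte markers were 622.9 in WT replicate 2, against 23.77 to 45.22 in the other WT libraries.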

How the results depend on the processing

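Over the 22 alternatives the median log2 fold change of the 10 genes lay between 0.32 and 0.66, against 0.47. Of 220 values of single genes under an alternative 1 changed sign, Spp1 at -0.27 without WT replicate 3 (-0.27 to 0.86 with 1 library left out), and 1 passed the threshold, Thbs1 by DESeq2. The count of the 10 genes called was 1 there, where Tnc and Spp1 had no adjusted p, and 0 in the other settings. The count of called genes in the related lists, 0 in the main test, was 1 by DESeq2, after quantile normalization, with array weights, and without WT replicate 2 and MC4R-/- replicate 5 together. Leaving out 1 library gave 0 to 1 related genes. The count over all genes, 67, was 0 by limma with neither trend nor robust fitting, where 1290 genes had an unadjusted p below 0.05. It was 60 by edgeR, 118 with array weights, 122 by DESeq2, 167 without WT replicate 2 and MC4R-/- replicate 5 together, and 26 to 118 with 1 library left out (37, 29 and 44 without MC4R-/- replicates 1, 2 and 3, and 118, 31 and 26 without WT replicates 2, 3 and 4). The causes were not tested. The numbers 1 to 4 are shared by the genotypes, but same-numbered libraries did not deviate together (correlations from -0.06 to -0.00, and 0 of 8 libraries closest to their own number). With the replicate block 52 genes and 0 of the 10 were called. The 77 and 31 reads of Tnc and the 36 and 22 reads of Spp1, in MC4R-/- and WT, limit what can be said of these 2 genes. The floor of 3 reads covers counting error only.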
